A study of Mus musculus with 9 samples.

Results

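These data describe how OT-II thymocytes with intact Nr4a genes responded at the transcript level when they met their antigen as a self-antigen during selection. The OT-II transgene encodes a class II-restricted T cell receptor (TCR) specific for an ovalbumin peptide. OT-II cells from WT hosts were compared with OT-II cells from RIPmOVA hosts, in 4 of the 9 sequenced libraries, 2 for each host type and each from a different mouse. The hosts were irradiated and given a mixture of marrow from 3 donors: OT-II control (Nr4a1+/+ Nr4a3+/+, the F1 of B6.Cg-Tg(TcraTcrb)425Cbn/J and BoyJ), OT-II lacking Nr4a1 and Nr4a3 by label (DKO) and non-transgenic wild-type. All mice were therefore mixed chimeras, reconstituted for 4.7 weeks, and every thymus also held DKO OT-II and non-transgenic cells. WT hosts were BoyJ mice by label, whereas the methods describe CD45.1/2 WT mice as F1 progeny of the same RIPmOVA and BoyJ crosses. RIPmOVA hosts, the F1 of BoyJ and a C57BL/6 line with the transgene Tg(Ins2-TFRC/OVA)296Wehi, carry membrane ovalbumin under the rat insulin promoter, so the antigen is made by radioresistant host cells. If the labels hold, host strain and antigen cannot be told apart, since each chimera had a single host type. The sorted cells were CD4+ CD8- CD69+ Valpha2+ VBeta5+ thymocytes of the control OT-II donor, told from the other donors by the congenic CD45 markers, and the listed gates did not include CD25.

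A CD4 single-positive thymocyte that has just passed positive selection keeps CD69 on its surface and is called semimature. At this stage it samples self-peptides in the medulla, where medullary thymic epithelial cells display many tissue-restricted proteins, including those driven by an insulin promoter. Strong recognition there leads to death by clonal deletion, to diversion into the regulatory T cell (Treg) lineage, or to an unresponsive state. TCR engagement acts through calcium and NFAT, ERK and AP-1, and NF-kB, and each arm has its own early target genes and its own feedback inhibitors.

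Depth, recovered from the steps between low values, was 15520000 and 23080000 reads in the WT-host libraries and 16490000 and 24210000 reads in the RIPmOVA-host libraries. Values are reads per kilobase of exon scaled to library depth (RPKM), always given for replicate 1 and then replicate 2, with n = 2 libraries per host type. For a gene of 1 kb, 3 reads correspond to 0.124 to 0.193 RPKM in these libraries, and such floors cover counting error only. Replicates correlated across genes with Pearson r of 0.959 in WT hosts and 0.979 in RIPmOVA hosts, where genes are not independent replicates. Marker genes of CD4 T cells summed to 2686 and 2644 RPKM in WT hosts and to 2549 and 2463 RPKM in RIPmOVA hosts. Reads on 1490 sensory receptor genes, which T cells are not known to use, amounted to 1140 and 515 RPM (scaled to depth, not to length) in WT hosts and to 555 and 293 RPM in RIPmOVA hosts, so that replicate 1 from WT hosts held the most. Of the 167 sensory receptor genes that were tested, limma called 0 and 9 had an unadjusted p under 0.05, while 153 had a log2 change below 0, with a median of -0.59. With these reads as a covariate, the comparison that follows called 82 genes higher and 5 lower.

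Of 24594 genes in the table, 11569 reached 1 RPKM in at least 2 of the 9 libraries and were tested with limma on log2(RPKM + 0.5). On this scale the log2 change, RIPmOVA minus WT hosts, understates the change of genes near or below 0.5 RPKM. At an adjusted p of 0.05 or less and a log2 change of at least 1 in size, 122 genes rose and 20 fell, 1.05% and 0.173% of all genes tested. Every one of these 142 genes had higher values in both libraries of one host type than in both of the other. A call with 2 libraries per host type nearly requires this. Of genes changed by at least 1 on the log2 scale but not called, 136 of 149 higher and 130 of 174 lower did not overlap either. The rises were larger than the falls. Among the genes that rose the median log2 change was 1.91, 56 changed by at least 2 and 10 by at least 4, whereas among those that fell the median was -1.34 and 0 changed by 2. The median over all genes tested was -0.020. Summed over the 122 genes, mean RPKM went from 763 in WT hosts to 2769 in RIPmOVA hosts. Of the 122, 39 were under 1 RPKM in both WT-host libraries and 65 were at or above it in both. A further limit concerns the filter, which 19 of the 122 would not have passed without the RIPmOVA OT-II libraries. These genes were tested only because of their level in that host type. They were Rln3, Arhgap20, Cxcr6, S100a4, Xcl1, Tnfsf4, Ifitm1, Hes1, Slc45a3, 2410003L11Rik, Pdzk1ip1, Nfil3, Lrrc32, 2810459M11Rik, Acsbg1, Nrgn, H2-Ab1, Cybrd1 and Fhl2. Of these, Rln3, S100a4 and Cxcr6 also reached 1 RPKM in replicate 2 from WT hosts. Counts and medians of any list or class that holds the 19 genes are raised by the filter. In bulk samples, fewer cells with a transcript and less transcript per cell cannot be told apart. The counts rest on all 4 libraries. Without replicate 1 or replicate 2 from RIPmOVA hosts, 50 and 56 genes were called, of which 47 and 48 were among the 142. Without replicate 1 or replicate 2 from WT hosts, 77 and 296 genes were called, of which 68 and 124 were among the 142.

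**Figure D1:**
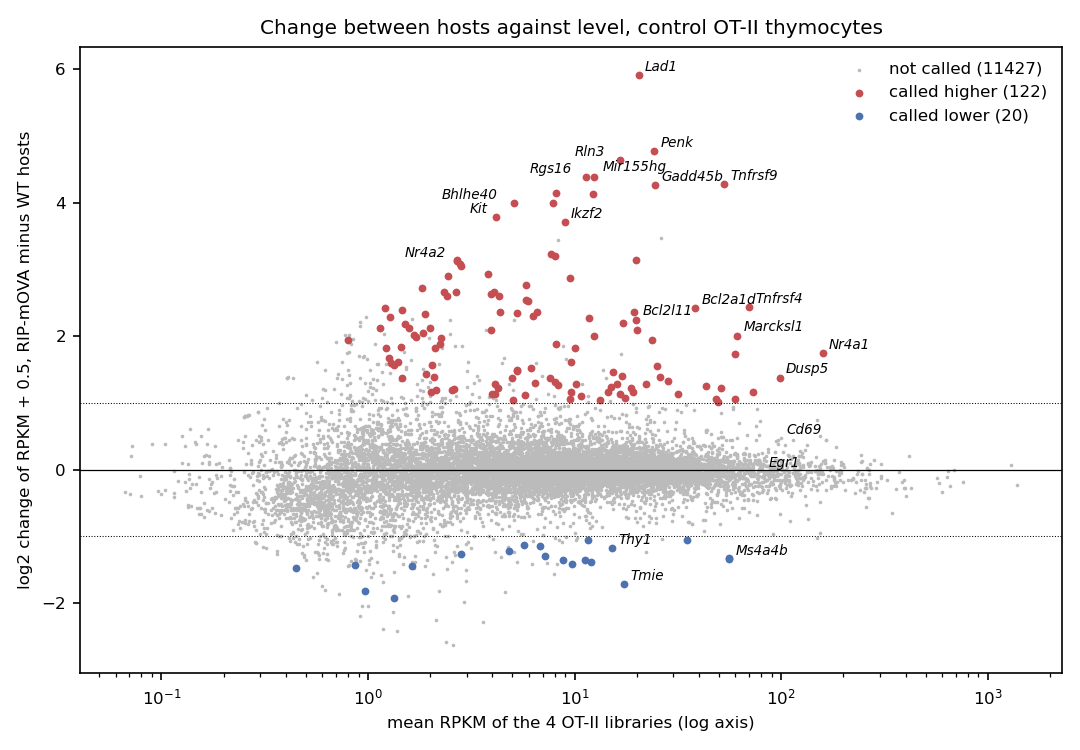
Log2 change of each of 11569 genes (RIPmOVA minus WT hosts, vertical axis) against its mean level in the 4 OT-II libraries (horizontal axis, log scale of RPKM). The 122 genes that rose reach a log2 change of 5.91 (Lad1), while the 20 that fell stay above -2.

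The largest change was that of Lad1, which encodes ladinin-1, a filament-anchoring protein known from epithelial basement membranes. Lad1 (chr1:135818598-135833342, GRCm38, plus strand) was at 0.147 and 0.231 RPKM in WT hosts and at 42.1 and 39.4 RPKM in RIPmOVA hosts, a ratio of means of 216. The values rested on 9 and 21 reads in WT hosts and on 2743 and 3769 reads in RIPmOVA hosts. The log2 change was 5.91 (SE 0.26, adjusted p = 1.7e-05), and it stayed between 5.14 and 7.70 over 22 alternative fits. Since Lad1 is an epithelial gene, thymic epithelial markers were read beside it. They summed to 10.1 and 7.31 RPKM in WT hosts and to 11.1 and 8.99 RPKM in RIPmOVA hosts, with Krt5 and Aire at or below 0.2 RPKM in all 4 libraries. Of these markers 3 were tested and 0 called. The log2 change was 0.51 for Epcam (95% interval -0.08 to 1.11), -0.01 for Ccl25 and -0.32 for Prss16.

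**Figure D2:**
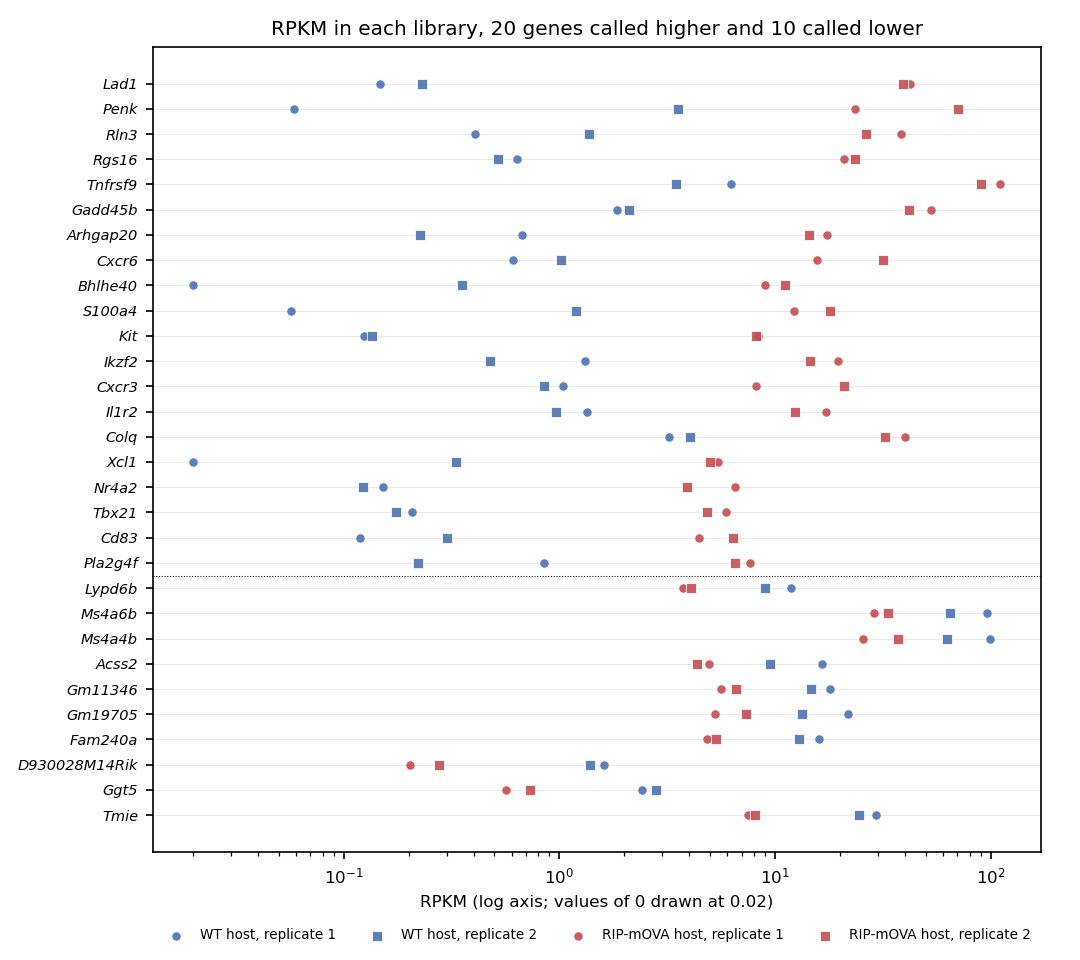
RPKM in each of the 4 OT-II libraries (log scale, values of 0 drawn at the left edge) of 20 genes at the top of the called rises and 10 at the bottom of the called falls, short RNAs and genes under 1 RPKM left out. Points are single libraries, blue for WT hosts and red for RIPmOVA hosts, circles for replicate 1 and squares for replicate 2. Only genes whose 2 host types do not overlap could be chosen.

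When the called genes were sorted by known function, a sorting done after their values were seen and not tested, transcription factors together with chromatin and transcription regulators (such as Carm1, Uhrf1 and Hipk2) held 24 genes that rose and 1 that fell. All 3 members of the Nr4a family of orphan nuclear receptors rose. Nr4a1 was abundant without antigen, at 60.7 and 86.1 RPKM, and reached 260 and 229 RPKM in RIPmOVA hosts (log2 change 1.75, SE 0.21, adjusted p = 0.0035). Its gain in mean RPKM was the largest of any gene tested, 171 RPKM. The other two members were under 0.2 RPKM in WT hosts. Nr4a2 was at 0.152 and 0.123 RPKM against 6.54 and 3.92 RPKM (log2 change 3.13, SE 0.36, adjusted p = 0.0035). Nr4a3 was at 0.181 and 0.189 RPKM against 5.66 and 3.72 RPKM (log2 change 2.90, SE 0.28, adjusted p = 0.0017). Both were higher in replicate 1 than in replicate 2 from RIPmOVA hosts.

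Several other immediate-early factors had nearly equal values in both host types. Egr1, a zinc-finger factor induced through ERK, was at 75.8 and 87.1 RPKM in WT hosts and at 70.7 and 90.5 RPKM in RIPmOVA hosts, so the host types overlapped. Its log2 change was -0.02, with a 95% interval of -0.34 to 0.30, which excludes a change of the size seen for Nr4a1. The log2 changes of Egr2 (-0.13, 95% interval -0.32 to 0.06), Junb (-0.16, 95% interval -0.64 to 0.33) and Myc (-0.17, 95% interval -0.54 to 0.20) did not pass the test either. Irf4 had a wider interval, from -0.37 to 1.26 around a log2 change of 0.44. Among the AP-1 genes, Fosl2 rose from 0.174 and 0.341 to 2.2 and 2.16 RPKM (adjusted p = 0.02), while Fos, at 4.62 and 4.74 against 7.2 and 10.1 RPKM, did not pass (adjusted p = 0.18). In the list of 32 TCR-induced factors, 26 were tested and 8 rose, with a median log2 change of 0.46. This number was 5 without replicate 1 from RIPmOVA hosts, 4 without the filter and 2 in a fit of the 4 OT-II libraries alone.

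Several lineage-associated factors also rose. Bhlhe40, a basic helix-loop-helix factor of activated T cells, was at 0 and 0.355 RPKM in WT hosts and at 8.97 and 11.1 RPKM in RIPmOVA hosts (log2 change 4.0, SE 0.42, adjusted p = 0.0021). Ikzf2 (Helios), a zinc-finger factor of thymic Treg cells and of self-reactive thymocytes, went from 1.31 and 0.476 to 19.6 and 14.5 RPKM (log2 change 3.71, SE 0.36, adjusted p = 0.0017). Its relative Ikzf4 (Eos) was 2.6 and 2.5 RPKM against 6.77 and 8.07 RPKM (log2 change 1.37, adjusted p = 0.0056). Tbx21, the Th1 factor T-bet, was under 0.21 RPKM in both WT-host libraries and reached 5.92 and 4.85 RPKM (log2 change 3.09, SE 0.32, adjusted p = 0.0021). Hopx, Hes1 (a Notch target), Nfil3, Irf8, Irf5, Ahr (the aryl hydrocarbon receptor), Pou2af1 and Bcl6 rose as well. Irf8, at 1.39 and 0.957 against 7.52 and 5.82 RPKM, was called in 21 of 22 alternative fits, whereas Hes1 and Hopx were called in 10 each. Among factors that set CD4 lineage identity, 0 of 29 tested were called by limma or by voom on recovered reads. Of all genes tested 1.05% rose and 0.173% fell, so 0 of 29 is near those shares. The median log2 change of these factors was 0.06, and 11 had an unadjusted p under 0.05. On the adjusted p of limma alone, 2 were higher and 1 lower. The single transcription regulator that fell was Eya2, a phosphatase co-activator, from 6.8 and 7.09 to 2.93 and 2.47 RPKM (log2 change -1.22, adjusted p = 0.0061).

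**Figure D3:**
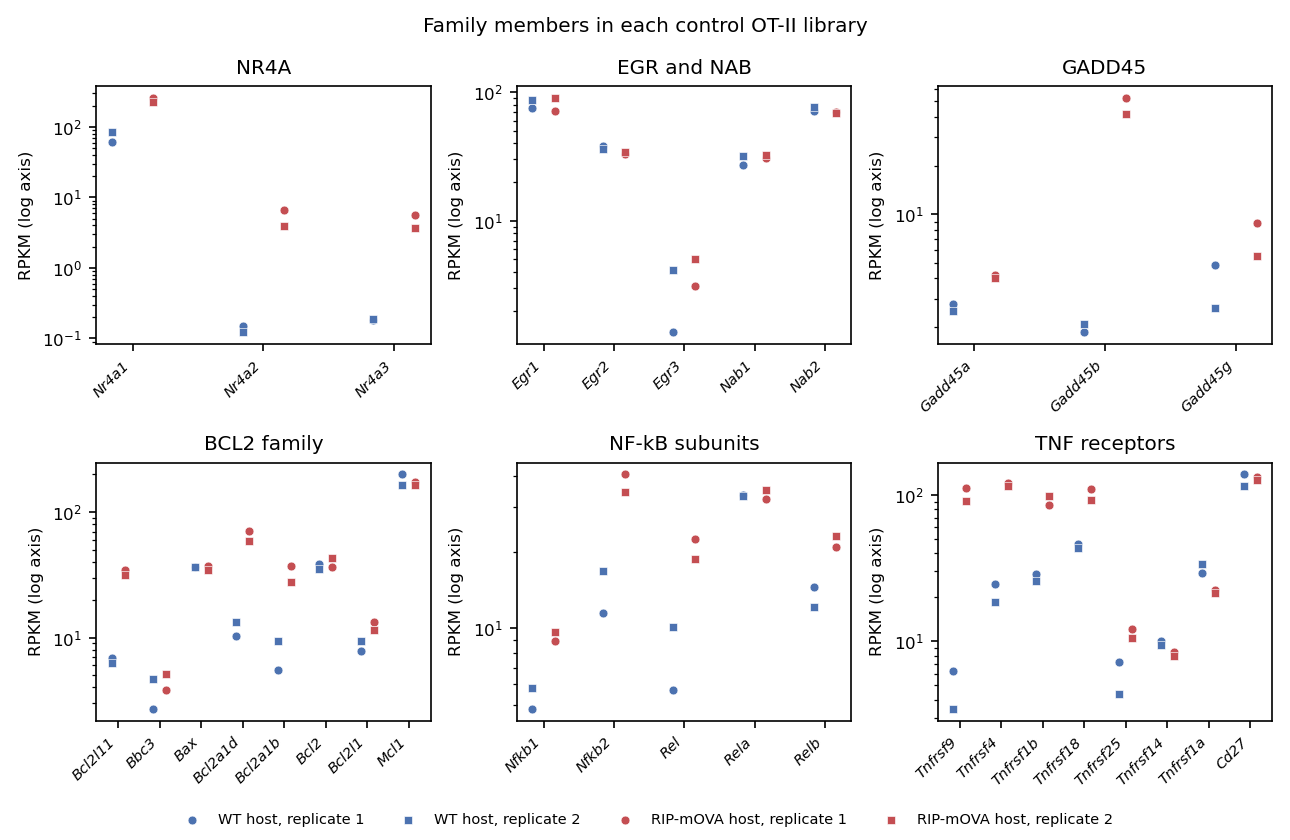
RPKM in each OT-II library for genes of 6 families (log scale), including members that did not pass the test. Nr4a1 lies above 200 RPKM in both RIPmOVA-host libraries and below 100 in both WT-host libraries, whereas Egr1 lies between 70 and 91 RPKM in all 4.

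Genes of the TNF receptor superfamily, costimulatory receptors that feed into NF-kB, were among the most abundant of the genes that rose. Tnfrsf9 (4-1BB, chr4:150914562-150946102, GRCm38, plus strand) was at 6.28 and 3.46 RPKM in WT hosts and at 111 and 90.5 RPKM in RIPmOVA hosts (log2 change 4.28, SE 0.34, adjusted p = 0.00079). Tnfrsf4 (OX40) went from 24.5 and 18.6 to 121 and 116 RPKM (log2 change 2.44, SE 0.23, adjusted p = 0.0017). These 2 receptors, Tnfrsf1b (TNFR2; 29 and 25.7 against 85.8 and 97.8 RPKM) and Tnfrsf18 (GITR; 46 and 43.7 against 110 and 92.4 RPKM) all ranked among the 15 genes with the largest gain in mean RPKM. Ligand genes rose too: Tnfsf4, which encodes the ligand of OX40, from 0.245 and 0 to 3.13 and 3.97 RPKM (adjusted p = 0.012), Fasl from 2.89 and 2.88 to 7.73 and 11.1 RPKM (adjusted p = 0.013) and Lta from 20.5 and 18.9 to 42 and 45.5 RPKM (adjusted p = 0.0038). Not all members were called. The log2 change was 0.00 for Tnf (95% interval -0.27 to 0.28), -0.13 for Ltb and 0.04 for Cd27. Tnfsf11, which encodes RANKL, the signal by which CD4 thymocytes sustain medullary epithelium, was at 24.5 and 28.2 against 50 and 48.8 RPKM without passing the test (adjusted p = 0.073).

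Within the NF-kB pathway, 3 of 28 tested genes rose, with a list median of 0.19. The number was 1 without replicate 1 or without replicate 2 from RIPmOVA hosts, 5 without replicate 2 from WT hosts, and 1 without the filter, in the 4 OT-II libraries alone, with a replicate block by number or with sensory receptor reads as a covariate. They were Nfkb2, the precursor of p52, at 11.5 and 16.9 against 40.5 and 34.6 RPKM (log2 change 1.39, SE 0.20, adjusted p = 0.012), and 2 inhibitors. Nfkbid, a nuclear IkB protein, was at 38.5 and 38.8 against 79.2 and 83 RPKM (log2 change 1.06, SE 0.09, adjusted p = 0.00079). Tnfaip3, the deubiquitinase A20, was at 7.96 and 9.03 against 20.2 and 16.2 RPKM (log2 change 1.05, SE 0.17, adjusted p = 0.019). Rel had a larger log2 change than either inhibitor, 1.37, from 5.72 and 10.1 to 22.5 and 18.7 RPKM, but its WT-host libraries were far apart and it did not pass (adjusted p = 0.073). Relb was higher at an adjusted p of 0.029 with a log2 change of 0.71, below the size required for a call. The log2 change of Rela was 0.01 (95% interval -0.21 to 0.24).

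Promoters of the genes that rose were searched for short motifs in the 250 bases before each annotated start, on both strands, in the RefSeq sequences of GRCm38.p6. A promoter was held for 105 of the 142 called genes, 92 that rose and 13 that fell. The kappaB consensus matched in 13 of the 92 (14.1%), beside 9.83% of 9070 tested genes with a promoter and 7.25% of all 32841 promoters. The AP-1 letters TGANTCA matched in 9 of the 92 (9.78%), beside 5.17% of tested genes and 6.75% of all promoters. The NBRE letters AAAGGTCA, the site that Nr4a proteins bind as monomers, matched in 2 of the 92 (Rln3 and Tgif1), beside 1.25% of tested genes. The CRE letters TGACGTCA and the EGR letters GCGTGGGCG each matched in 2 of the 92, beside 3.03% and 1.19% of tested genes. Both EGR matches were the same site in Bcl2a1d and Bcl2a1b, near-identical copies that also share an AP-1 match and gave 2 of the 9. These shares are descriptions without a test, and a match is not a bound site. The windows printed here were chosen after the matches were seen, to show kappaB matches beside AP-1 matches in Tnfrsf9 and Tnfaip3, the kappaB matches of Nfkb2 and the NBRE of Rln3. Tnfrsf9 and Tnfaip3 have 2 annotated starts each and Nfkb2 has 3, of which 1 is shown. Each is the gene strand, 5′ to 3′, over 150 bases, with matches in capitals: Tnfrsf9 at chr4:150927849-150927998 (plus strand), Tnfaip3 at chr10:19015411-19015560 (minus strand), Nfkb2 at chr19:46304587-46304736 (plus strand) and Rln3 at chr8:84044980-84045129 (minus strand).
Tnfrsf9: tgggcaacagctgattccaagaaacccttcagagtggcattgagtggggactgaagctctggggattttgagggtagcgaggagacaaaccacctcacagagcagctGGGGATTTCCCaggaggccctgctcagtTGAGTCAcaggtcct
Tnfaip3: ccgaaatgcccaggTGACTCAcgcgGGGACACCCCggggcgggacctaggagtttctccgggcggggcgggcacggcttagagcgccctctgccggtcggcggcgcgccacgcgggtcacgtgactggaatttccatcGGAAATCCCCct
Nfkb2: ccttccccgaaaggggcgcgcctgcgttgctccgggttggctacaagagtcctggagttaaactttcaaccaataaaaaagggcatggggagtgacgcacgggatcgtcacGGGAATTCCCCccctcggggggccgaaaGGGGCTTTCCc
Rln3: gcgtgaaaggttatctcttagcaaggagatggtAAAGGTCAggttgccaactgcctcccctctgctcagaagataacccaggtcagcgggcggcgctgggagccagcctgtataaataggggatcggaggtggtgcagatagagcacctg

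Genes of cell death and of survival rose side by side. Gadd45b (chr10:80930073-80932204, GRCm38, plus strand), a stress-response gene that couples to the p38 and JNK kinases, was at 1.86 and 2.1 RPKM in WT hosts and at 52.7 and 41.6 RPKM in RIPmOVA hosts (log2 change 4.26, SE 0.19, adjusted p = 1.7e-05). Bcl2l11, which encodes BIM, the BH3-only protein required for much of thymic clonal deletion, was at 6.86 and 6.32 against 34.6 and 31.7 RPKM (log2 change 2.25, SE 0.19, adjusted p = 0.00092). The anti-apoptotic Bcl2a1d and Bcl2a1b, near-identical copies between which the counting could split reads, rose by similar amounts. Bcl2a1d was at 10.2 and 13.4 against 71 and 59.2 RPKM (log2 change 2.42, SE 0.25, adjusted p = 0.0021). Bcl2a1b was at 5.53 and 9.33 against 37.2 and 27.9 RPKM (log2 change 2.09, SE 0.34, adjusted p = 0.02). Of the remaining BCL2 family genes tested, none passed. The further copy Bcl2a1a was at 0.473 and 1 against 3.18 and 2.72 RPKM (log2 change 1.51, 95% interval 0.63 to 2.38, adjusted p = 0.1), and Bcl2l1, which encodes BCL-XL, had a log2 change of 0.49 (95% interval 0.14 to 0.85, adjusted p = 0.18). The log2 change was 0.27 for Bbc3, which encodes PUMA (95% interval -0.26 to 0.80), -0.03 for Bax (95% interval -0.30 to 0.24), 0.10 for Bcl2 (95% interval -0.20 to 0.40) and -0.10 for Mcl1 (95% interval -0.44 to 0.23). By list, 1 of 5 tested pro-apoptotic genes and 2 of 6 tested pro-survival genes rose. In the list of p53 targets and GADD45 genes Gadd45b was the only riser of 12 tested. Gadd45a had a log2 change of 0.55 (95% interval 0.13 to 0.97), and Trp53 one of 0.16. In the list of 27 death receptor, caspase and related genes, 2 rose, with a list median of 0.02. They were the ligand gene Fasl and Tnfrsf1b, grouped above with costimulatory receptors, and no caspase gene was called.

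Of 21 listed regulatory T cell genes, 18 were tested and 11 rose, with a median log2 change of 1.64. These were Il2ra, Ikzf2, Ikzf4, Lrrc32, Ahr, Tnfrsf18, Tnfrsf4, Itgae, Nt5e, Swap70 and Tnfrsf9, many of which are also targets of TCR or IL-2 signals in other T cells. The list was drawn up with results of these libraries known and is not independent evidence of its direction. Lrrc32 would not have passed the filter without the RIPmOVA OT-II libraries. Foxp3, the factor that defines the lineage, was at 0.29 and 0.491 RPKM in WT hosts and at 1.9 and 3.31 RPKM in RIPmOVA hosts, without overlap but short of the threshold (log2 change 1.77, 95% interval 0.88 to 2.67, adjusted p = 0.065). Ctla4 was at 9.47 and 5.1 against 11.7 and 20.4 RPKM (adjusted p = 0.22), and Izumo1r, which encodes folate receptor 4, had a log2 change of -0.49. The surface genes of the list included Itgae (CD103), at 1.32 and 1.34 against 7.28 and 13.8 RPKM (log2 change 2.53, SE 0.33, adjusted p = 0.0061). Lrrc32 (GARP), which holds latent TGF-beta at the cell surface, was at 0.662 and 0.245 against 3.46 and 3.63 RPKM (log2 change 2.12, SE 0.34, adjusted p = 0.02). Nt5e (CD73), an ectoenzyme that makes adenosine, was at 0.136 and 0.422 against 5.01 and 3.81 RPKM (log2 change 2.67, SE 0.50, adjusted p = 0.032). The number of the 18 that rose depended on single libraries. It was 3 without replicate 2 and 5 without replicate 1 from RIPmOVA hosts, and 7 without replicate 1 from WT hosts. It was also 3 in a fit of the 4 OT-II libraries alone, 4 without the filter and 7 with sensory receptor reads as a covariate.

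Inhibitory receptors and their ligands lay mostly above 0 but were not called. Of 16 tested, 0 rose or fell, beside the 1.05% of all genes that rose, while 12 had a log2 change above 0 and the list median was 0.76. The largest log2 changes were those of Tigit (1.85, 95% interval 0.76 to 2.93), Cd160 (1.82, 95% interval 0.76 to 2.89) and Pdcd1lg2 (1.18, 95% interval 0.34 to 2.01). These 3 intervals lay above 0, but none of the genes passed on adjusted p. The 4 below 0 were Vsir (-0.61, 95% interval -0.98 to -0.23, adjusted p = 0.12), Btla (-0.32), Cd200r1 (-0.20) and Cd96 (-0.16). Voom on recovered reads also called 0, and 11 of the 16 had an unadjusted p under 0.05. Cd101 was the single member with an adjusted p of 0.05 or less (log2 change 0.75, adjusted p = 0.042). Pdcd1 (PD-1) was at 22.1 and 24.4 RPKM in WT hosts and at 49.1 and 43.4 RPKM in RIPmOVA hosts, a log2 change of 0.97 with a 95% interval of 0.48 to 1.47 (adjusted p = 0.064). Cd5, a negative regulator whose level tracks TCR signal strength, was at 99.9 and 123 against 198 and 176 RPKM (log2 change 0.75, adjusted p = 0.054). Among 19 tested anergy genes, 2 rose, Ikzf2 and Nt5e, both also on the regulatory T cell list. Cblb, an E3 ligase that restrains TCR signals, was at 6.57 and 5.78 against 12.9 and 11.8 RPKM with a log2 change of 0.95, just under the size required (adjusted p = 0.045).

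Transcripts of 2 of the 3 IL-2 receptor chains rose. Il2rb, the beta chain shared with the IL-15 receptor, was at 5.09 and 6.92 RPKM in WT hosts and at 27.9 and 38.1 RPKM in RIPmOVA hosts (log2 change 2.36, SE 0.39, adjusted p = 0.02). Il2ra (CD25) was at 4.25 and 2.28 against 12.3 and 13.6 RPKM (log2 change 1.88, SE 0.29, adjusted p = 0.016), and the common gamma chain Il2rg had a log2 change of -0.03. Cish, a STAT5 target that feeds back on cytokine and TCR signals, went from 1.52 and 2.06 to 9.82 and 11.7 RPKM (log2 change 2.30, SE 0.19, adjusted p = 0.00092). It was the only called gene among 14 tested SOCS and STAT genes. Stat5a was higher with an adjusted p of 0.0061 at a log2 change of 0.86, and Socs3 was at 12 and 6.45 against 2.19 and 4.13 RPKM without passing (adjusted p = 0.14). Transcripts of the cytokine Il2 itself were at 1.35 and 1.17 against 5.14 and 1.52 RPKM, so that only replicate 1 from RIPmOVA hosts stood apart (adjusted p = 0.32).

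Other cytokine receptor genes rose from very low levels. Kit, the stem cell factor receptor, was at 0.124 and 0.136 RPKM in WT hosts and at 8.32 and 8.13 RPKM in RIPmOVA hosts (log2 change 3.79, SE 0.43, adjusted p = 0.0035). Il1r2, a decoy receptor for IL-1, was at 1.35 and 0.961 against 17.3 and 12.4 RPKM (log2 change 3.20, SE 0.49, adjusted p = 0.015). Il6ra moved the other way, from 4.17 and 4.16 to 1.13 and 1.8 RPKM (log2 change -1.27, adjusted p = 0.04). Il7r, which supplies survival signals to maturing thymocytes, had a log2 change of -0.25 (95% interval -0.75 to 0.26).

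Secreted products accounted for 10 of the genes that rose. Penk, which encodes proenkephalin, had the second largest log2 change and the least even replicates, at 0.059 and 3.55 RPKM in WT hosts and at 23.5 and 70.2 RPKM in RIPmOVA hosts (log2 change 4.77, SE 0.90, adjusted p = 0.033). It was called in 8 of 22 alternative fits. Rln3, a peptide hormone of the relaxin family, was at 0.407 and 1.37 against 38.3 and 26.5 RPKM (log2 change 4.64, SE 0.37, adjusted p = 0.00079) and was called in all 22. Colq, a collagen-like anchor of acetylcholinesterase, was at 3.23 and 4.04 against 39.9 and 32.4 RPKM (log2 change 3.15, SE 0.32, adjusted p = 0.0021). Xcl1, a chemokine that attracts XCR1+ dendritic cells and is known from medullary epithelium and activated T cells, was at 0 and 0.331 against 5.45 and 4.97 RPKM (log2 change 3.15, adjusted p = 0.012). Lif, a cytokine of the IL-6 family, stayed low throughout, at 0.043 and 0.029 against 1.28 and 1.86 RPKM (adjusted p = 0.028). Ifng, at 0 and 0.137 against 1.68 and 1.48 RPKM, did not pass (adjusted p = 0.077), and neither did Ebi3 (log2 change 2.03, with an adjusted p above 0.05 that rounds to 0.05).

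Receptors that guide migration changed selectively. Cxcr6 was at 0.61 and 1.02 RPKM in WT hosts and at 15.6 and 31.7 RPKM in RIPmOVA hosts (log2 change 4.13, SE 0.40, adjusted p = 0.0017). Cxcr3, a target of T-bet in Th1 cells, was at 1.04 and 0.851 against 8.2 and 20.8 RPKM (log2 change 3.24, SE 0.55, adjusted p = 0.022). For both genes replicate 2 from RIPmOVA hosts was more than 2 times replicate 1. Icam1, an adhesion ligand of LFA-1, was at 9.79 and 12.4 against 25.6 and 27.1 RPKM (log2 change 1.22, SE 0.14, adjusted p = 0.0035). The receptors that direct cells into the medulla and out of the thymus did not pass the test, with log2 changes of -0.29 for Ccr7 (95% interval -0.53 to -0.06, adjusted p = 0.22) and 0.16 for S1pr1 (95% interval -0.12 to 0.43). Ccr8 had a large gain in mean RPKM but wide WT-host replicates, at 27.9 and 99.8 against 147 and 155 RPKM (adjusted p = 0.21). In all, 5 of 30 tested migration and egress genes rose, the others being Itgae and Rgs16. The number was 3 without replicate 2 from RIPmOVA hosts, 3 without the filter and 2 in the 4 OT-II libraries alone. Cd69, on which the cells were gated, was at 83.4 and 83.2 against 113 and 118 RPKM (log2 change 0.47, adjusted p = 0.022).

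Effector genes of cytotoxic and memory cells were among those that rose. Nkg7, a granule membrane protein, was at 2.25 and 1.6 RPKM in WT hosts and at 18.6 and 15.6 RPKM in RIPmOVA hosts (log2 change 2.87, SE 0.27, adjusted p = 0.0017). The calcium-binding genes S100a4 and S100a6, neighbours on chromosome 3 with 6.84 kb between them, rose together. S100a4 was at 0.057 and 1.2 against 12.3 and 18 RPKM (log2 change 3.99, SE 0.45, adjusted p = 0.0035), and S100a6 at 0.301 and 1.26 against 5.21 and 9.46 RPKM (log2 change 2.67, SE 0.40, adjusted p = 0.014). Gzmb, which encodes granzyme B, was at 5.07 and 2.26 against 12.9 and 14.8 RPKM and did not pass (adjusted p = 0.18). Listed markers of NK and innate T cells summed to 9.59 and 4.63 RPKM in WT hosts and to 26.4 and 26.7 RPKM in RIPmOVA hosts. Of that list 5 genes were tested, with a median log2 change of 1.86 and 4 above 0, and Tbx21, already described, was the single called gene. Klrd1, which encodes CD94, was at 0.139 and 0.14 against 1.48 and 3 RPKM (log2 change 2.04, 95% interval 1.04 to 3.04, adjusted p = 0.057). Ncr1, Klrb1c and Zbtb16 were at or below 0.486 RPKM in every library. The part of such cells in the effector genes was not tested.

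Regulators of the cytoskeleton, membrane traffic and small GTPases made up 15 of the genes that rose, and none that fell. Besides Lad1, Arhgap20, a GTPase-activating protein, was at 0.669 and 0.226 RPKM in WT hosts and at 17.5 and 14.3 RPKM in RIPmOVA hosts (log2 change 4.15, SE 0.30, adjusted p = 0.00079). Marcksl1, an actin-linked membrane protein, was at 19.9 and 28.6 against 107 and 89.3 RPKM (log2 change 2.01, SE 0.24, adjusted p = 0.0037). Cyth3, an exchange factor for ARF GTPases, was at 1.25 and 2.5 against 11.7 and 11 RPKM (log2 change 2.37, SE 0.27, adjusted p = 0.0035). The endocytic adaptor Hip1r, the class I myosins Myo1e and Myo1f, Stx11 (a syntaxin of cytotoxic granule release), Swap70, Lmna (lamin A/C) and Tubb2a rose as well, by 1.26 to 2.67 on the log2 scale. Actb (actin), Pfn1 (profilin) and Vim (vimentin) did not pass, with log2 changes of -0.13, 0.00 and -0.04.

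Calls among feedback inhibitors are given by list, beside the 1.05% and 0.173% of all genes tested that rose and fell. Of 32 tested ubiquitin ligases and TCR signal inhibitors limma called 0, which is near those shares. Their median was 0.06, 7 had an unadjusted p under 0.05, and voom called 1. Of 11 tested ERK feedback genes 2 rose, a number that was 0 without replicate 1 from RIPmOVA hosts, without the filter and in the 4 OT-II libraries alone, and 1 without replicate 1 from WT hosts, without replicate 2 from RIPmOVA hosts, and without DKO replicate 1 or 3 from WT hosts. The other genes named here were grouped after their values were seen. Rgs16, which switches off G protein signalling, was at 0.634 and 0.519 RPKM in WT hosts and at 20.8 and 23.4 RPKM in RIPmOVA hosts (log2 change 4.39, SE 0.33, adjusted p = 0.00079). A pair of phosphatases of ERK-family kinases rose, Dusp5 from 46.8 and 62.6 to 154 and 131 RPKM (log2 change 1.38, SE 0.18, adjusted p = 0.0068), and Dusp4, from 0.306 and 1.31 to 8.67 and 5.56 RPKM (log2 change 2.63, SE 0.49, adjusted p = 0.031). Dusp1 and Dusp10 had adjusted p of 0.029 and 0.0061 at log2 changes of 0.68 and 0.65, below the size required, and Dusp2 and Dusp6 had log2 changes of 0.12 and 0.02. Tagap, another GTPase-activating protein with a known part in thymocyte selection, was at 10.3 and 8.86 against 37.6 and 38.3 RPKM (log2 change 1.94, SE 0.15, adjusted p = 0.00079). Samsn1, an adaptor that dampens lymphocyte activation, was at 12.2 and 13.1 against 34.2 and 29.1 RPKM (log2 change 1.29, SE 0.15, adjusted p = 0.0035), and Trib1, a pseudokinase, rose by 2.61 on the log2 scale. Of 25 tested genes of the TCR complex and its proximal kinases, limma and voom called 0, with a list median of -0.11 and 10 at an unadjusted p under 0.05. Among signalling genes that fell were the kinase Sgk1, from 8.7 and 7.28 to 2.97 and 3.79 RPKM (adjusted p = 0.028) and the calcium-binding Tesc, from 48.3 and 46.6 to 22.4 and 23 RPKM (adjusted p = 0.0074).

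Of 20 tested genes in the list of MHC class I and antigen presentation, 1 rose, H2-Q6, and 15 had a log2 change below 0, with a median of -0.18. With class II genes, 3 genes of antigen presentation rose, a grouping made after their values were seen. Cd74, the class II invariant chain, was at 15.8 and 9.61 RPKM in WT hosts and at 39 and 35.6 RPKM in RIPmOVA hosts (log2 change 1.56, SE 0.21, adjusted p = 0.0084). H2-Ab1, the class II beta chain, was at 0.586 and 0.305 against 2.58 and 2.15 RPKM (adjusted p = 0.049), and the class Ib gene H2-Q6, which shares sequence with its neighbours in the Q region, was at 4.7 and 2.6 against 13.8 and 25.9 RPKM (adjusted p = 0.034). Class II genes are hallmarks of antigen-presenting cells, so their markers were read beside this result. The 20 listed macrophage and dendritic cell genes summed to 57.5 and 43.6 RPKM in WT hosts and to 106 and 87.5 RPKM in RIPmOVA hosts, without overlap. Of them 9 were tested, all with a log2 change above 0 and a median of 1.11, 6 had an unadjusted p under 0.05 and 2 rose, Cd74 and H2-Ab1 themselves. The class II gene H2-Eb1 and the complement gene C1qb had log2 changes of 1.30 and 1.11 (adjusted p = 0.1 and 0.27). The other 11 stayed under 1 RPKM in all 4 libraries. Lyz2 was at 7.54 and 1.65 against 18.7 and 8.44 RPKM, Itgax was at or below 0.158 RPKM and Mpeg1 at or below 0.029 RPKM throughout. Markers of B cells summed to 7.77 and 5.19 against 11 and 5.68 RPKM. The part of such cells in the class II result was not tested.

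Among other surface proteins, 11 genes rose and 5 fell. Cd83, a membrane protein of thymic epithelium, dendritic cells and activated T cells, was at 0.119 and 0.3 RPKM in WT hosts and at 4.46 and 6.4 RPKM in RIPmOVA hosts (log2 change 3.06, SE 0.39, adjusted p = 0.0059). Prnp, the prion protein gene, was at 7.55 and 8.43 against 22.4 and 23.3 RPKM (log2 change 1.46, SE 0.15, adjusted p = 0.0021) and was called in all 22 alternative fits. The tetraspanin Cd82 was at 26.5 and 36.1 against 67.3 and 63 RPKM (adjusted p = 0.012), and Ly6d, a lipid-anchored surface protein, at 5.54 and 5.47 against 37.6 and 19.7 RPKM (adjusted p = 0.029).

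Enzymes and transporters gave 12 genes that rose and 2 that fell, spread over many pathways. Pla2g4f, a cytosolic phospholipase A2, was at 0.85 and 0.221 RPKM in WT hosts and at 7.67 and 6.52 RPKM in RIPmOVA hosts (log2 change 2.94, SE 0.39, adjusted p = 0.0067). Eno3, the muscle enolase, was at 4.1 and 5.22 against 23.9 and 16.7 RPKM (log2 change 2.00, SE 0.20, adjusted p = 0.0021) and was the only called gene of 22 tested glycolysis genes. Both enzymes of polyamine metabolism that were called rose, Odc1, which makes putrescine, from 5.55 and 5.93 to 12.6 and 14.3 RPKM (adjusted p = 0.025), and Smox, which oxidizes spermine, from 5.01 and 4.25 to 13.7 and 10.3 RPKM (adjusted p = 0.011). Srm, a further enzyme of that metabolism, was tested but not called, with a log2 change of -0.42 (95% interval -0.76 to -0.07). Acss2, which makes acetyl-CoA from acetate, fell from 16.6 and 9.44 to 4.92 and 4.33 RPKM (log2 change -1.35, adjusted p = 0.021), and Ggt5, a gamma-glutamyltransferase, fell from 2.42 and 2.81 to 0.565 and 0.733 RPKM (log2 change -1.44, adjusted p = 0.023). The respiratory chain list (76 tested), the proteasome list (40 tested) and the cell cycle list (34 tested) held 0 called genes by limma or voom, with 0, 2 and 7 genes at an unadjusted p under 0.05.

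The host transcript of miR-155, a microRNA induced by antigen in lymphocytes, was among the largest rises. Mir155hg (chr16:84703167-84715245, GRCm38, plus strand) was at 0.27 and 1.21 RPKM in WT hosts and at 30.5 and 17.8 RPKM in RIPmOVA hosts (log2 change 4.38, SE 0.42, adjusted p = 0.0017). Replicate 1 from RIPmOVA hosts was 1.71 times replicate 2, and both were far above either WT-host library. Libraries of polyadenylated RNA do not measure the mature microRNA. Its main arm lies inside the transcript at chr16:84714143-84714165 and is printed with its seed, bases 2 to 8, in capitals, since the seed sets which transcripts it pairs with.
mmu-miR-155-5p: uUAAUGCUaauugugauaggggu

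The 20 genes that fell had no single function. Tmie, a membrane protein best known as a part of the hair cell transduction channel, was at 29.4 and 24.5 RPKM in WT hosts and at 7.53 and 8.09 RPKM in RIPmOVA hosts, the lowest log2 change among genes with more than 10 reads in any library (-1.72, SE 0.19, adjusted p = 0.0035). It was called in 21 of 22 alternative fits, more than any other gene that fell. Fam240a, 34.6 kb away on chromosome 9, was at 16 and 12.9 against 4.86 and 5.3 RPKM (log2 change -1.42, adjusted p = 0.048). The tetraspan genes Ms4a6b and Ms4a4b, known to increase as thymocytes mature, fell, Ms4a6b from 95.7 and 64.5 to 28.9 and 33.4 RPKM (log2 change -1.33, SE 0.20, adjusted p = 0.015) and Ms4a4b from 98.9 and 63 to 25.7 and 37 RPKM (log2 change -1.34, SE 0.27, adjusted p = 0.041). These genes are similar in sequence, and replicate 1 from WT hosts, the library with most sensory receptor reads, was the higher in both. Thy1, the pan-T cell surface glycoprotein, was at 20.6 and 21.8 against 8.49 and 9.74 RPKM (log2 change -1.18, SE 0.22, adjusted p = 0.03). Lypd6b, a Ly6-domain protein, and Lpar5, a receptor for lysophosphatidic acid, fell by 1.30 and 1.14 on the log2 scale. Of the non-coding genes that fell, Snora78, Snord110 and 1700001D01Rik had at most 10 reads in every OT-II library.

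Genes of the semimature to mature transition gave values on both sides. Of 32 tested, 3 rose and 2 fell, 21 had a log2 change below 0 and the median was -0.28. Over the alternative fits the median ran from -0.40 to -0.13, the number that rose from 1 to 3 and the number that fell from 0 to 5. Without replicate 1 from WT hosts, or without either replicate from RIPmOVA hosts, 1 rose and 0 fell, and without replicate 2 from WT hosts 2 rose and 5 fell. Without DKO replicate 3 from WT hosts 1 rose and 1 fell. Cd24a, a marker that is lost on maturation, was at 27.9 and 32.7 RPKM in WT hosts and at 75.7 and 67.5 RPKM in RIPmOVA hosts (log2 change 1.23, SE 0.22, adjusted p = 0.028). Nkg7 and H2-Q6 also rose, and Ms4a4b and Ms4a6b fell. All 8 tested GIMAP GTPases, survival factors of mature T cells, had a log2 change below 0 with a median of -0.25. Limma and voom called 0 of them, and 4 had an unadjusted p under 0.05. Of the cytosolic ribosomal protein genes, 79 of 84 were below 0 with a median of -0.19, beside a median of -0.020 over all genes tested, and 0 were called by limma or voom (21 at an unadjusted p under 0.05). Interferon-stimulated genes were below 0 in 22 of 30 cases with a median of -0.14 and 0 called by limma or voom (0 at an unadjusted p under 0.05), and their median lay between -0.26 and 0.06 over the alternative fits.

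**Figure D4:**
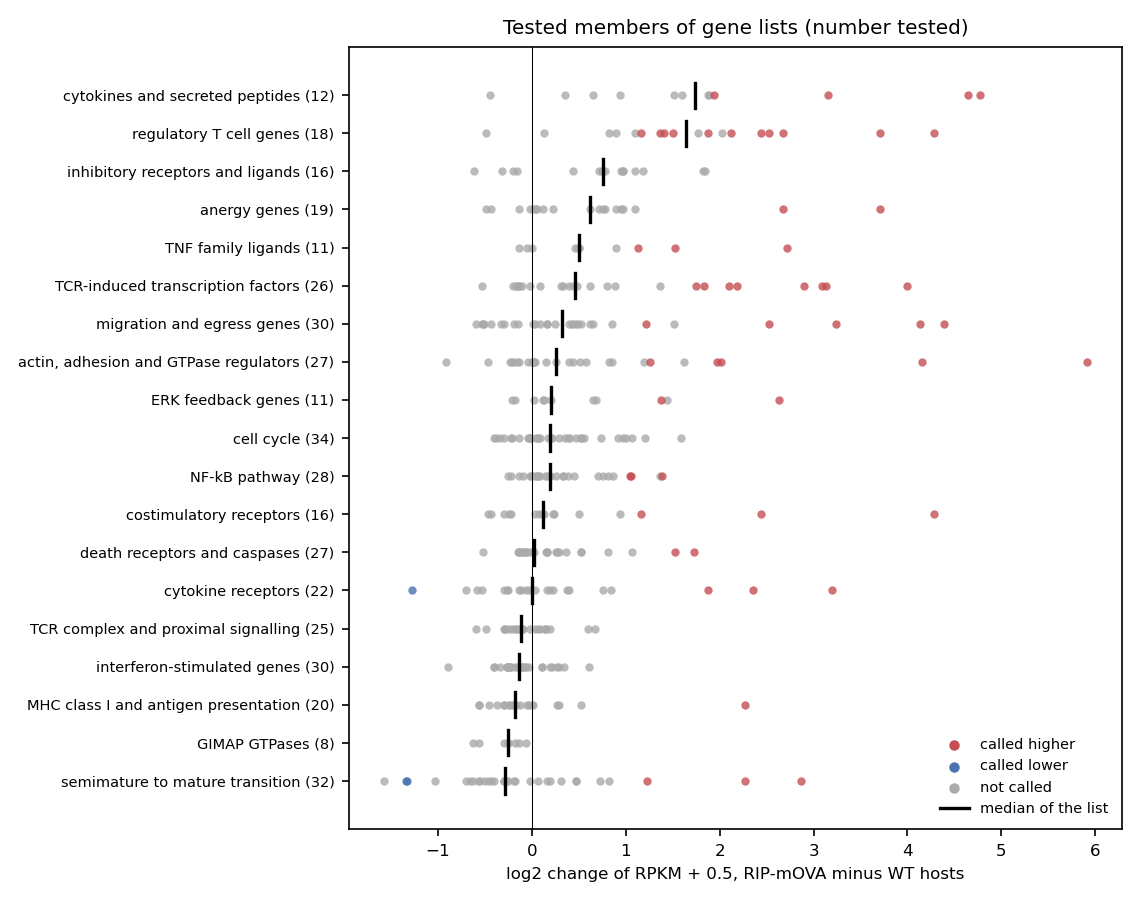
Log2 change (RIPmOVA minus WT hosts) of every tested member of each gene list, with called genes marked and the median of each list drawn. Of the lists drawn, the secreted factor list (median 1.74, 4 of 12 called) and the regulatory T cell list (median 1.64, 11 of 18 called) have the highest medians, and the inhibitory receptor list has a median of 0.76 with 0 called. Rln3 and Xcl1 in the secreted factor list and Lrrc32 in the regulatory T cell list would not have passed the filter without the RIPmOVA OT-II libraries. This raises the values of both lists.

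The spread between the RIPmOVA-host mice is given for the called genes as a description only, since a call requires a small spread. Replicate 2 over replicate 1 had a median ratio of 0.908 over the 122 genes that rose, and 105 of them were within 1.5 times. In 9 genes replicate 2 was the higher by at least 1.5 times, among them Penk (2.99), Cxcr3 (2.54), Cst7 (2.13), Cxcr6 (2.03) and Itgae (1.9). In 8 genes replicate 1 was the higher by as much, among them Ly6d (1.91), Mir155hg (1.71), Nr4a2 (1.67), Dusp4 (1.56) and Nr4a3 (1.52).

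Below a log2 change of 1 in size, 77 further genes had an adjusted p of 0.05 or less, which brings the totals on adjusted p alone to 165 higher and 54 lower genes, 1.43% and 0.467% of those tested. Id3, an inhibitor of E proteins, was lower at 171 and 168 RPKM in WT hosts against 108 and 95.1 RPKM in RIPmOVA hosts (log2 change -0.74, adjusted p = 0.0061). Gpr18, a lymphocyte G protein-coupled receptor, was at 119 and 121 against 53.3 and 70.4 RPKM (log2 change -0.97, adjusted p = 0.02). Ikzf3 (Aiolos) was higher, at 8.5 and 7.47 against 13.4 and 16.6 RPKM (adjusted p = 0.029), as was Sox4, a factor of immature thymocytes, at 60.9 and 56.9 against 107 and 90 RPKM (adjusted p = 0.031). Dusp10 joined Dusp4 and Dusp5, at 60 and 57.1 against 94.8 and 89 RPKM (adjusted p = 0.0061). In the opposite class, 149 genes above and 174 below 0 had a log2 change of at least 1 in size without passing on adjusted p, such as Ly6k at 0.427 and 16.4 against 39.1 and 49.1 RPKM.

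Of the 122 genes that rose, 19 were called in each of 22 alternative fits, among them Lad1, Rln3, Rgs16, Tnfrsf9, Gadd45b, Arhgap20, Cxcr6, Ikzf2, Colq, Nkg7, Tnfrsf4, Cish, Bcl2l11 and Nfkbid. Rln3, Arhgap20 and Cxcr6 are also among those that would not have passed the filter without the RIPmOVA OT-II libraries, so their calls are no support for stability. Of all 142 called genes, 39 were called in at least 20 of the 22 fits, 28 in at most 10, and 0 took the other sign in any. Since their groups do not overlap, fits with a library left out, another pseudocount or another filter could not reverse a sign. A fit restricted to the 4 OT-II libraries, in which the DKO libraries no longer contribute to the estimate of spread, called 29 of the genes that rose and 2 of those that fell. Small list counts moved with single libraries too. Without replicate 1 from WT hosts or either replicate from RIPmOVA hosts, 1 pro-survival gene and 1 anergy gene rose in place of 2 each, and anergy genes also numbered 1 without any 1 of the DKO libraries from WT hosts and 3 without replicate 2 from WT hosts. Death receptor and caspase genes numbered 1 without replicate 1 from WT hosts or replicate 2 from RIPmOVA hosts. For 37 of the 142 genes, exons overlap those of another gene, on the opposite strand in 28, and whether counting used strand was not given in the sources used here. Penk, Rgs16, Bhlhe40, Ikzf2, Xcl1, Hopx, Cish, Tagap, Nfkb2, Dusp5, Acss2, Il6ra and Tmie belong to these. Arhgap20, Ikzf4, Tnfrsf18, Icam1 and Ms4a6b do so too, and the values of all 37 are uncertain to that extent.

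**Figure D5:**
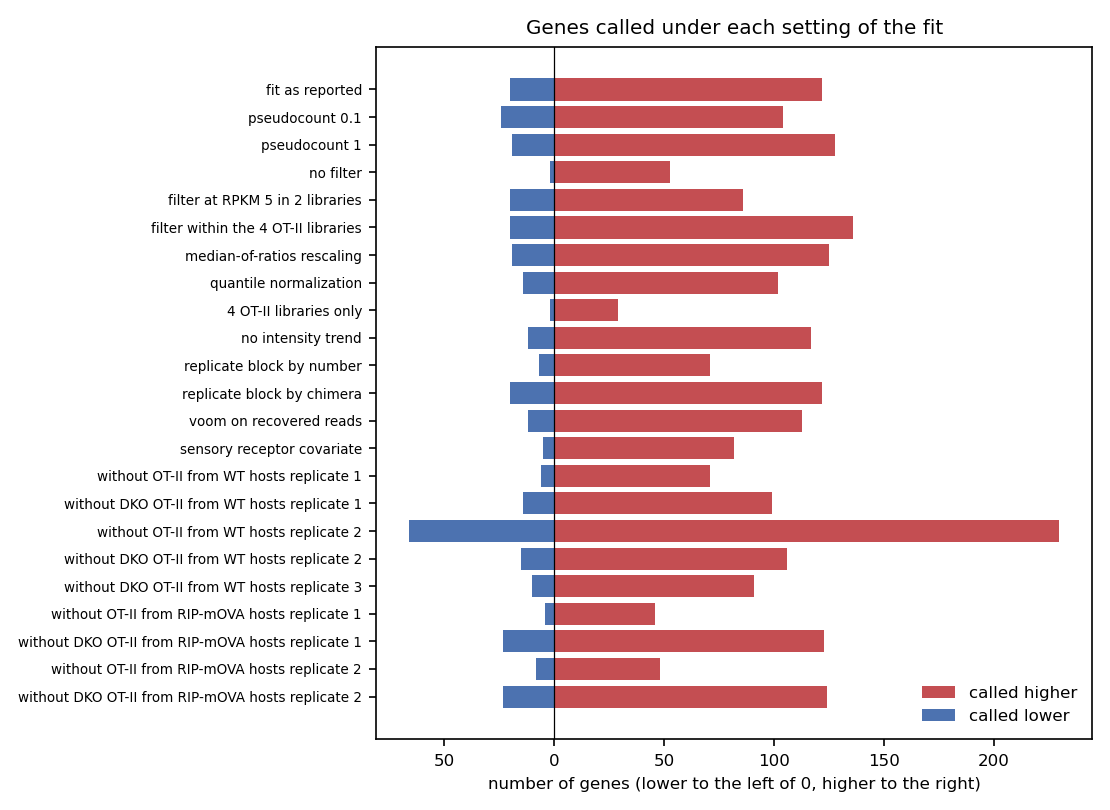
Number of genes called higher and lower in RIPmOVA hosts (horizontal axis, genes) under the reported fit and each alternative. The reported fit calls 122 and 20, and the alternatives run from 46 higher and 4 lower without replicate 1 from RIPmOVA hosts, or 29 and 2 in the 4 OT-II libraries alone, to 230 and 66 without replicate 2 from WT hosts.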

How the data were processed

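Polyadenylated RNA of sorted thymocytes was amplified with a low-input SMART-seq kit, made into Nextera XT libraries and sequenced with paired ends. According to the methods, alignment by the authors was to mm10 with STAR, and they removed duplicates, summed reads over the exons of each Entrez gene and deposited RPKM values, which are scaled to exon length and to the reads of the library, and they tested groups with DESeq2. The deposited table holds RPKM and no counts, so a count model was not the main test here. Duplicate removal in amplified libraries can compress the values of very abundant genes. Depth was recovered as the number of reads at which low RPKM values become whole reads: 100% of the low values were whole within 0.1 read in each library.

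Genes with at least 1 RPKM in at least 2 of 9 libraries were kept (11569 of 24594). Log2(RPKM + 0.5) was the response in limma 3.58.1 (R 4.3.3), over all 9 libraries in 4 groups (lmFit, contrasts.fit, eBayes with trend), and the contrast was OT-II from RIPmOVA against OT-II from WT hosts. The DKO libraries entered only the shared estimate of spread. The moderated p-values of limma, two-sided, were adjusted by Benjamini-Hochberg across the genes kept. Calls needed both an adjusted p of at most 0.05 and a log2 change of at least 1 in size. Tested on 5 simulated data sets of 11569 genes, this recovered 95.4% of genes changed by 1.5 or 2 and 99.2% of those changed by 3 or 4, and 4.63% of its calls were unchanged genes. The simulation gave every gene the same spread, the median over genes between the 2 WT-host OT-II libraries. It held no noisier genes and no uneven library, so these rates are not those of the real data. With 2 libraries per group the smallest two-sided p of an exact permutation test is 0.333. Each of the 4 OT-II libraries came from its own chimera, shared in part with DKO libraries, and same-numbered libraries of the host types came from different mice, so they were not paired.

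The comparison, the gene lists and the rule for named genes were chosen with earlier results of these data known. Named genes were members of the lists, called genes, and the 15 largest gains and losses of mean RPKM. Functional classes were assigned after the values were seen. Columns of the other libraries were used only for the filter and the spread. Locations came from the GENCODE annotation of GRCm38 and sequences from RefSeq (GRCm38.p6). Alternatives were other pseudocounts, filters, scalings, fits, a replicate block, voom on recovered reads, a covariate of sensory receptor reads and leaving out each library. Some listed markers, such as Cd244 and Igkc, were not analysed here, and some values are not reported here. Python 3.11.15, numpy 2.4.6, pandas 2.3.3 and matplotlib 3.10.9 were used.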

Additional observations from a re-analysis of the deposited data

How the results depend on the processing

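The 142 calls (122 higher, 20 lower) stayed within 1.5 times of their number with pseudocounts of 0.1 and 1, a filter at 5 RPKM or within the OT-II libraries, median-of-ratios and quantile scaling. Without a filter 55 were called (53 higher, 2 lower), in the 4 OT-II libraries alone 31 (29 and 2), with sensory receptor reads as covariate 87 (5 lower), without the intensity trend 12 lower, with voom on recovered reads 12 lower and on adjusted p alone 219 (54 lower). By construction, no filter adjusts over 24594 genes and the fit of 4 libraries has fewer samples; for the others the cause was not tested. Leaving out single libraries gave 50 to 296 calls, 46 to 230 higher and 4 to 66 lower. The lone library left in a group was then assumed to vary like the other groups, and leaving out DKO replicate 3 from WT hosts gave 10 lower calls. A replicate block by number gave 78 calls (71 higher, 7 lower). Same-numbered libraries of the 2 host types came from different mice, and their deviations correlated at 0.23, so the numbers do not pair them. A replicate block by chimera called 142 as well, sharing 140 with the reported fit. No called gene took the other sign in any of the 22 fits, which the lack of overlap fixed in advance for most of them. With 2 mice per host, changes near a log2 change of 1 and genes with few reads are the least certain, and 1657 genes had an unadjusted p under 0.05.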

Other observations

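Neighbouring genes on the same chromosome were called together in 8 pairs within 100 kb, comprising 15 genes, and in all 8 both members went the same way. Of the 142 called genes 122 rose, so most pairs of called genes go the same way at any position. Tnfrsf4 and Tnfrsf18 lie 9.55 kb apart on chromosome 4, with C1qtnf12, a secreted protein gene at 10.3 and 10.1 RPKM in WT hosts and 22.9 and 23.2 RPKM in RIPmOVA hosts, 47.2 kb from Tnfrsf4. Acoxl, 2.17 kb from Bcl2l11 on chromosome 2, was at 1.39 and 1.37 against 3.67 and 4 RPKM (limma adjusted p = 0.046) and was called in 7 of 22 alternative fits. Ifitm2 and Ifitm1, membrane proteins that restrict viruses and are similar in sequence, lie 11.2 kb apart on chromosome 7 and rose by 2.54 and 2.60 on the log2 scale. No test of this proximity was run.

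Several abundant transcripts had large losses of mean RPKM without being called. Slfn1, a Schlafen family gene associated with T cell quiescence, was at 246 and 157 RPKM in WT hosts and at 87.1 and 106 RPKM in RIPmOVA hosts (log2 change -1.03, limma adjusted p = 0.11). Rgcc, a cell cycle regulator, was at 235 and 171 against 115 and 93.6 RPKM (log2 change -0.95, limma adjusted p = 0.12). Slfn2 was at 475 and 365 against 268 and 264 RPKM (log2 change -0.65), Gimap3 at 339 and 275 against 193 and 220 RPKM (log2 change -0.56), and Dgka, which dampens diacylglycerol signals, at 316 and 296 against 204 and 253 RPKM (log2 change -0.43). In each of these 5 genes both RIPmOVA-host libraries were below both WT-host libraries. The 5 were picked from the 15 largest losses of mean RPKM in these libraries, which favours lack of overlap, so this is a description only.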
